A study of Mus musculus with 6 samples.

Results

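The step from 1 to 3 dpi, days after infection by the labels, was examined in a culture of mouse fibroblasts that had received Tet3, by setting the array of the 3 dpi sample against that of the 1 dpi sample. The later sample, Tet3 3 dpi, and its earlier counterpart, Tet3 1 dpi, both came from ICR mouse embryos at E13.5, whose fibroblasts (MEF) were exposed to adenoviral supernatants with the carrier polybrene for 8 h and once more on the following day. Both were then kept in a low-glucose medium with 5% FBS. Part of that medium was replaced by neuronal medium with 20 µM forskolin, an activator of adenylyl cyclase, on days 3 and 5 after the second infection, and whether the 3 dpi cells were taken before or after that day's change is not stated in the labels. Nor do they say from which of the 2 infections dpi is counted, so whether the 1 dpi cells had received both is not known. No sample analysed here received virus without Tet3, so that infection and Tet3 cannot be told apart. Each sample was measured on 1 single-colour Agilent array, without replicates, so no test between the groups was possible and every difference describes a pair of arrays. The study's other arrays, MEF, 5 dpi, 7 dpi and primary embryonic neurons, are used only to place the values. A probe was kept where its signal was well above background, by the scanner software's own call, on at least 1 of the arrays of 3 and 1 dpi. This held for 33056 of 39429 probes (83.8%) and, with 1 probe for each gene, for 18181 of 20659 named genes.

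Tet3 is a dioxygenase that oxidises 5-methylcytosine in DNA, a first step of active demethylation, and fibroblasts are a common starting cell for direct conversion into neurons. Cultured fibroblasts respond to serum, growth factors and infection with a first wave of transcription factors called immediate early genes, which is followed by entry into the cell cycle. Sterol synthesis is governed by the transcription factor Srebf2, which is activated when membranes hold little cholesterol, while the liver X receptors switch on genes of cholesterol export when sterols are plentiful. Embryonic fibroblast cultures are mixed, and macrophages of the embryo are often carried over into them.

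The signals below are log2 values with the 75th percentile of each array at 0, and a difference is 3 dpi minus 1 dpi. Where only 1 of the arrays measured a gene above background, the difference is a bound and is given as "at least". Tet3 itself was measured by 3 probes. The brightest lay at 1.74 at 3 dpi and at 1.13 at 1 dpi, 1.52-fold higher, and the others were 1.70-fold and 1.82-fold higher. One of those lay at -1.13 at 3 dpi and at -1.99 at 1 dpi, and was not well above background in MEF, in neurons or on the array labelled 7 dpi. Tet3 was thus measured at both times, while the array labelled 7 dpi lacked this signal and is called by its label throughout. Its relatives differed less than 2-fold, Tet1 being 1.65-fold higher and Tet2 standing at 0.921-fold. Of 15 genes of DNA demethylation 0 were at least 2-fold higher and 2 lower, the repair glycosylase Neil2 (2.77-fold) and the deaminase Apobec1 (2.08-fold). The methyltransferase Dnmt3a, which sets new methylation marks, was 3.06-fold lower, and Uhrf1, which guides maintenance methylation after replication, was 2.50-fold higher, which with Mbd1, a reader of methylated DNA at 2.18-fold lower, made 1 of 12 methylation genes higher and 2 lower.

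The label of the treated samples, induced neurons, was set against marker genes. All 7 fibroblast markers were well above background on both arrays, and their signals summed to 257 at 3 dpi and 342 at 1 dpi, in multiples of the 75th percentile. Among them 1 was at least 2-fold higher at 3 dpi and 3 were lower. Of 8 neuron markers, 7 were well above background on both arrays, with sums of 14.7 at 3 dpi and 8.17 at 1 dpi. Their log2 signals ran from -5.52 to 3.50 at 3 dpi and from -5.06 to 2.69 at 1 dpi. The brightest marker thus made up most of each sum. At 3 dpi 3 of the 7 were at least 2-fold higher and 0 lower. The neuronal RNA-binding protein Elavl3 was not above background on either array. The samples are called by their time after infection for that reason. Macrophage markers, of which 5 of 6 were on the array, were all well above background at both times, and summed to 9.66 at 3 dpi and 21.5 at 1 dpi. Of the 5, 0 were at least 2-fold higher at 3 dpi and 3 were lower. In RNA from a whole culture, fewer cells of a type and less RNA per cell cannot be told apart.

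Over all 18181 genes, 1367 (7.52%) exceeded 2-fold upwards at 3 dpi and 898 (4.94%) downwards. These shares are the comparison for every count of list members, above and below. Counted over probes, 2582 of 33056 (7.81%) were higher and 1291 (3.91%) lower. The share of higher genes among those past 2-fold was 60.4%, and it was 37.6% after normexp background correction, 34.7% after quantile normalization and 40.5% among brighter genes, whose mean log2 signal was at least -1. At 4-fold, 101 (0.556%) were higher and 227 (1.25%) lower. The differences of the 16298 genes measured on both arrays had a median of 0.058 and an interquartile range of -0.24 to 0.40, against a median array error of 0.20, which covers the array and not the culture. The direction varied with signal: in the dimmest of 4 equal classes of signal 738 of 4546 genes were higher and 245 lower, and in the brightest 85 were higher and 148 lower, with a median difference of -0.04. In the dimmest class 2665 genes were measured on both arrays, with a median difference of 0.366. Of all genes, 1768 passed the filter through the 3 dpi array alone and 115 through that of 1 dpi alone. The array of 3 dpi also had 83.28% of probes well above background and that of 1 dpi 72.87%. The ERCC control probes, which match no mouse transcript, give a further view of the arrays: 6 were well above background at 3 dpi and 2 of them at 1 dpi. As measured, without bounds, the differences of these 6 ran from 0.46 to 1.58 on the log2 scale, with a median of 1.45. Of the 6, 4 passed the filter through the 3 dpi array alone, so their low values at 1 dpi follow in part from that choice. By the rule used for genes 1 was at least 2-fold higher and 0 lower. This probe, ERCC-00062_278, lay at -0.13 at 3 dpi and at -1.55 at 1 dpi. Of the E1A control probes, another set, 5 were well above background at 3 dpi and 3 at 1 dpi, and 0 passed 2-fold by that rule. As measured, their differences ran from -0.64 to 1.55, with a median of 0.21. The 3 dpi array was scanned with those of 5 dpi, 7 dpi and neurons, and the 1 dpi array with that of MEF, so scan and time cannot be told apart. Of the 1367 higher genes, 939 (68.7%) were above both arrays of the first scan on all 4 arrays of the second, as were 4447 (24.5%) of all genes. Of the 898 lower genes, 289 (32.2%) were below both on all 4, as were 1670 (9.19%) of all genes. The higher and lower genes were chosen by 3 dpi against 1 dpi, which is itself part of this pattern. A larger share than over all genes was thus partly fixed in advance, and the shares are not directly comparable. The 6 ERCC probes kept also lay above both arrays of the first scan on all 4 of the second. What part the scan had in any difference was not tested.

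**Figure D1:**
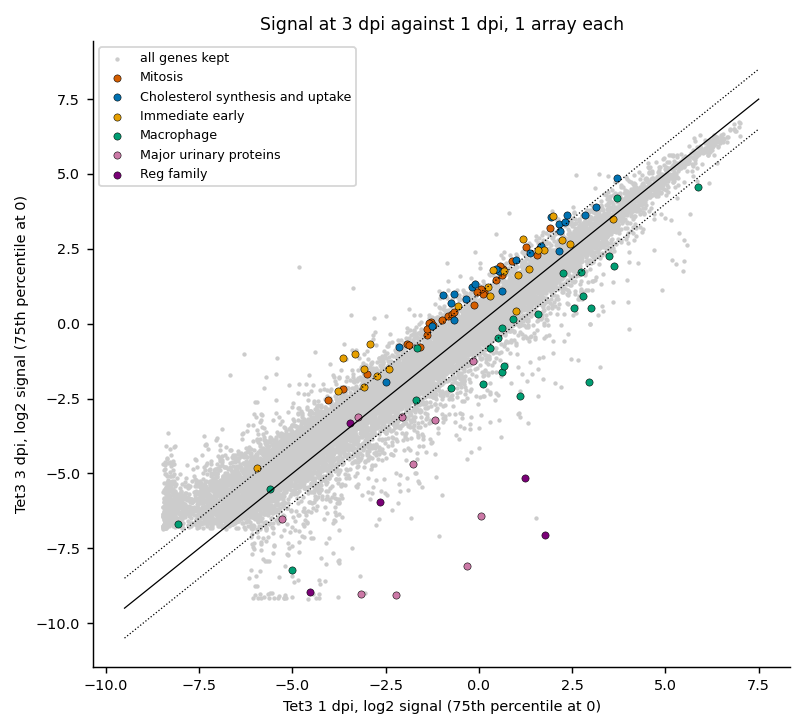
Each gene kept, with its log2 signal at 3 dpi (vertical axis) against 1 dpi (horizontal axis), both with the 75th percentile of the array at 0, 1 array each; the solid line marks equal signal, the dotted lines 2-fold, and 6 gene lists are coloured. Mitosis and cholesterol synthesis genes lie together above the line of equal signal, macrophage genes mostly below it, and Mup and Reg genes furthest below.

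**Figure D2:**
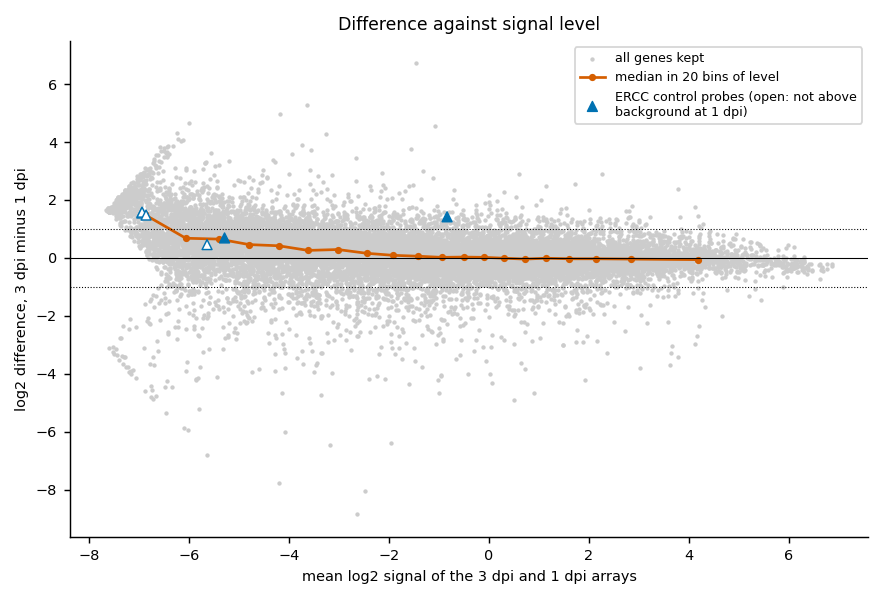
The log2 difference, 3 dpi minus 1 dpi (vertical axis), against the mean log2 signal of both arrays (horizontal axis) for the 18181 genes kept, with medians in 20 bins of level and the 6 ERCC control probes kept, as triangles, open where not above background at 1 dpi; differences are as measured, without bounds, and dotted lines mark 2-fold. The median lies near 0 for bright genes and rises among dim ones, and the brightest ERCC probe lies at 1.42.

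Mitosis genes were higher at 3 dpi as a group. Of 29 members kept, 23 were at least 2-fold higher and 0 lower, against 7.52% of all genes higher, and the differences ran only from 0.75 to 1.48 with a median of 1.15. Cdc25c, a phosphatase that activates Cdk1 at entry into mitosis, lay at -2.56 at 3 dpi and at -4.04 at 1 dpi, 2.80-fold higher. The spindle checkpoint kinase Ttk lay at -2.17 at 3 dpi and at -3.65 at 1 dpi, and Top2a, the topoisomerase that untangles sister chromosomes, at 0.03 and -1.35 in the same order of arrays. Ube2c, the ubiquitin-conjugating enzyme of the anaphase-promoting complex, was 2.56-fold higher and the checkpoint kinase Bub1 2.50-fold. Mki67, the proliferation marker, lay at 1.82 at 3 dpi and at 0.64 at 1 dpi, 2.27-fold higher, and cyclin Ccnb1 stayed below 2-fold at 1.90. Every member kept was higher at 3 dpi than at 1 dpi on these arrays.

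Over the whole series, the list median was -1.19 in MEF and -0.68 at 1 dpi. It was 0.39 at 3 dpi and 0.87 at 5 dpi, then 0.10 for the array labelled 7 dpi, and -1.11 in neurons. All 4 arrays of the second scan lay above both of the first for 9 of the 29 members, against 24.5% of all genes. Genes of DNA replication were higher to a smaller extent. Their median was 0.62, and 29 of 30 members lay above 0, but 4 reached 2-fold, among them the licensing and helicase factors Cdc6 and Mcm10 (2.36-fold each), Mcm5 (2.12-fold) and the ribonucleotide reductase subunit Rrm2 (2.03-fold, log2 0.96 with median centring). E2f2, an activator of S-phase genes, went the other way at 2.73-fold lower, lying at -2.28 at 3 dpi and at -0.83 at 1 dpi.

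The promoters of the leading mitosis genes are shown because this class of genes is known for short shared elements, the CCAAT box and the TTTGAA motif of cell cycle promoters. The sequences come from RefSeq (GRCm38.p6), run 5′ to 3′ along the gene's strand from 250 bases before to 50 after the start, and have both motifs in capitals on either strand, so that ATTGG and TTCAAA are the reverse forms. Ttk lies at chr9:83834439-83834738 (+ strand), Top2a at chr11:99024140-99024439 (- strand), Ube2c at chr2:164769679-164769978 (+ strand) and Bub1 at chr2:127831810-127832109 (- strand).
Ttk: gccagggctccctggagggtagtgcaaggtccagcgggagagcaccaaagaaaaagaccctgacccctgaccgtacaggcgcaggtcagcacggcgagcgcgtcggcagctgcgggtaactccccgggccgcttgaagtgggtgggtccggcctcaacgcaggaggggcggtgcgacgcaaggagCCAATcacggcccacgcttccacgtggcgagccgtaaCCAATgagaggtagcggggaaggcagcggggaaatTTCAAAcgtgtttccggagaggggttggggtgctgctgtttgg
Top2a: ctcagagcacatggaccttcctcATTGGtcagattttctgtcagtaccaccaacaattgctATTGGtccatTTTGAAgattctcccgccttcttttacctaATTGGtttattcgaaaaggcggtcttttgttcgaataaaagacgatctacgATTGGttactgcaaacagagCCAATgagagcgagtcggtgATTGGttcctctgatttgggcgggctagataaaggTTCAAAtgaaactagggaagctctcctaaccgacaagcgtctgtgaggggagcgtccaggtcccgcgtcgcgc
Ube2c: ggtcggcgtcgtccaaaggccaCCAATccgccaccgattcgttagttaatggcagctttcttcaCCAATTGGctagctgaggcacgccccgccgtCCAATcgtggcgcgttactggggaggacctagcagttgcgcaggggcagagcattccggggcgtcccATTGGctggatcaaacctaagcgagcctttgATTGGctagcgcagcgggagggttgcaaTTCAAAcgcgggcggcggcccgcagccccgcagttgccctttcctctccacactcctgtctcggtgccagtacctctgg
Bub1: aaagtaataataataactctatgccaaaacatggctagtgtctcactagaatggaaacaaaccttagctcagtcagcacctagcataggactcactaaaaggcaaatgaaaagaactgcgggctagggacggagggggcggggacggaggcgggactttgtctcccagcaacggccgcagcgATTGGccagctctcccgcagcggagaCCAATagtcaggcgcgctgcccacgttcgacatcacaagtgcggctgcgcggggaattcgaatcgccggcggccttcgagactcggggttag
The Top2a and Ube2c windows hold 6 CCAAT boxes each, and Ttk and Bub1 hold 2 each. In Ube2c a forward and a reverse box share letters in CCAATTGG. TTTGAA occurs 2 times in Top2a, once in Ttk and Ube2c and not in the Bub1 window. Of the 23 list members with a promoter in the RefSeq table, 20 (87.0%) hold CCAAT and 17 (73.9%) hold TTTGAA, where 41.1% and 20.2% of 27025 genes do. Among 25 replication genes with a promoter, 15 (60.0%) hold CCAAT and 4 TTTGAA. These shares describe letters in a window and not binding.

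The inhibitors of the cell cycle went in both directions. Of 11 kept, 1 was at least 2-fold higher and 2 were lower, with a median of -0.14. Cdkn1c, an imprinted inhibitor of cyclin-dependent kinases, lay at 2.13 at 3 dpi and at 5.18 at 1 dpi, 8.30-fold lower, and was between 4.41 and 5.42 in MEF, at 5 dpi and for the array labelled 7 dpi. Cdkn2a, the locus of p16 and p19Arf, was 2.12-fold lower, and Cdkn3, a phosphatase that is itself cell cycle regulated, 2.31-fold higher (log2 0.92 with normexp). Of 24 targets of p53, 0 passed 2-fold in either direction, with a median of 0.01. Cdkn1a, the p21 inhibitor and a main p53 target, lay at 3.66 at 3 dpi and at 3.16 at 1 dpi, 1.41-fold higher.

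**Figure D3:**
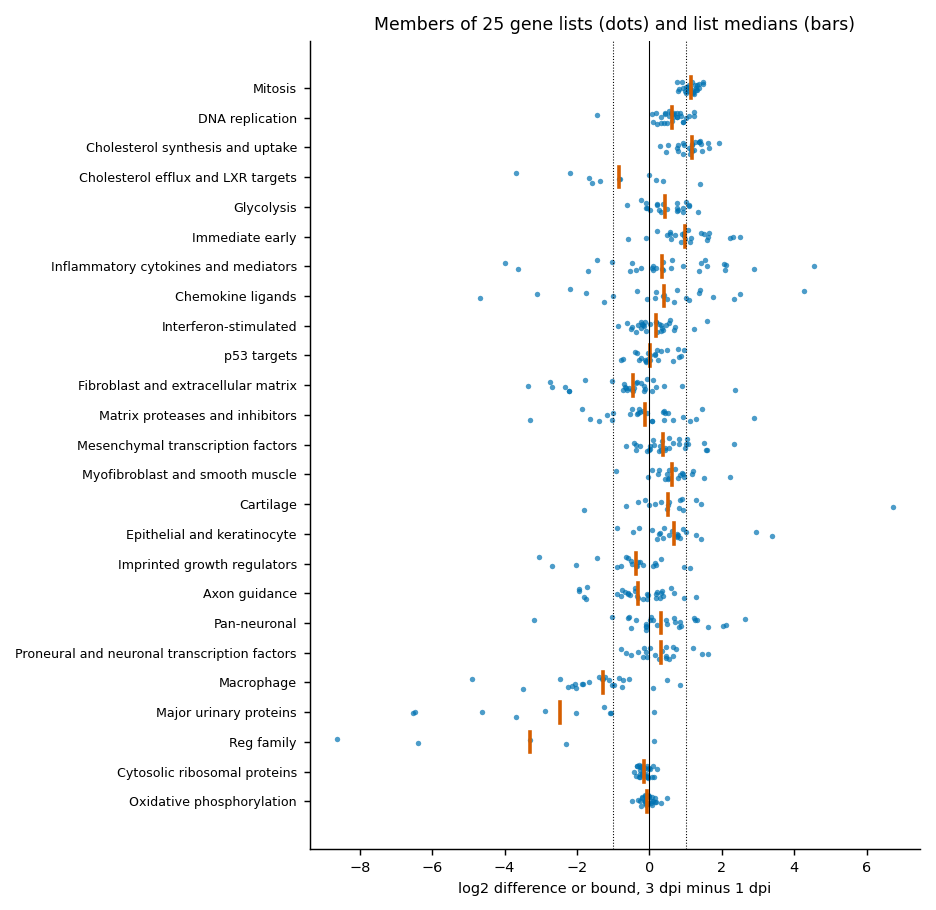
The log2 difference or bound, 3 dpi minus 1 dpi (horizontal axis), of each member (dots, spread vertically for legibility) of 25 gene lists (rows), with the list median as a bar and dotted lines at 2-fold. Mitosis and cholesterol synthesis lie to the right with little spread, ribosomal and oxidative phosphorylation genes lie close to 0, and chemokine, inflammatory and fibroblast genes spread in both directions.

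Cholesterol synthesis and uptake genes formed the other group with every member higher. All 25 members kept were above 0, 16 of them at least 2-fold and 0 lower, with a median of 1.18 and a range of 0.29 to 1.93. Lss, the cyclase that forms lanosterol, lay at 0.97 at 3 dpi and at -0.96 at 1 dpi, 3.81-fold higher. The sterol reductase gene Hsd17b7 lay at 0.99 at 3 dpi and at -0.66 at 1 dpi, and Idi1, the isomerase of isoprenoid units, at 3.56 and 1.93 in that order. Acat2, the thiolase that starts the pathway, was 2.73-fold higher and the sterol carrier gene Stard4 2.69-fold. Enzymes at the start, middle and end of the pathway were thus among the higher genes.

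The group had its highest median at 3 dpi: the list median was 0.78 in MEF and 0.61 at 1 dpi, reached 1.81 at 3 dpi, and was 0.53 at 5 dpi, 1.30 for the array labelled 7 dpi and 0.42 in neurons. Of the 25 members, 1 had all 4 arrays of the second scan above both of the first. Genes of cholesterol export and liver X receptor targets lay mostly the other way, with 5 of 11 at least 2-fold lower, 1 higher and a median of -0.84, where 4.94% of all genes were lower. Apoe, the apolipoprotein that carries cholesterol out of macrophages and other cells, lay at 1.77 at 3 dpi and at 5.46 at 1 dpi, 12.9-fold lower. The transporters Abca1 and Abcg1, which load cholesterol onto lipoproteins, were 4.61-fold and 2.99-fold lower, and Pltp, the phospholipid transfer protein, 3.17-fold. Scd1, the fatty acid desaturase and a target of the liver X receptors, was 2.61-fold higher. Apoe and several of these genes are also strongly made by macrophages, whose markers were lower on the same array, and the part of that in these values was not tested. Among fatty acid and adipocyte genes 1 of 17 was higher and 3 lower, among them the lipase Lpl, 7.51-fold lower, and the scavenger receptor Cd36, 5.68-fold lower.

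The promoters of the 3 leading sterol genes, a set chosen after the values were seen, are printed for comparison with the mitosis genes, in the same format. Lss lies at chr10:76531355-76531654 (+ strand), Hsd17b7 at chr1:169969156-169969455 (- strand) and Idi1 at chr13:8885356-8885655 (+ strand).
Lss: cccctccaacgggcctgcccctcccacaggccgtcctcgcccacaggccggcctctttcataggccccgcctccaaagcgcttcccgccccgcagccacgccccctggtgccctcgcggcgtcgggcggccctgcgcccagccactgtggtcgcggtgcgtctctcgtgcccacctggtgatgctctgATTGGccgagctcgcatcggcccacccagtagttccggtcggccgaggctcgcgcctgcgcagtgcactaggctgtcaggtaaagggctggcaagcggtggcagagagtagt
Hsd17b7: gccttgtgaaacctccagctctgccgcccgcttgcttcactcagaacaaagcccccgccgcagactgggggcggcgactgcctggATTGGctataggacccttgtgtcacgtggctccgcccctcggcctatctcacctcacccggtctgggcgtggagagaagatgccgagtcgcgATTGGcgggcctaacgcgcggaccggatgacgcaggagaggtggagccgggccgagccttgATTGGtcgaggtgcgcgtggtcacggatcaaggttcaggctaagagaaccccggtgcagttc
Idi1: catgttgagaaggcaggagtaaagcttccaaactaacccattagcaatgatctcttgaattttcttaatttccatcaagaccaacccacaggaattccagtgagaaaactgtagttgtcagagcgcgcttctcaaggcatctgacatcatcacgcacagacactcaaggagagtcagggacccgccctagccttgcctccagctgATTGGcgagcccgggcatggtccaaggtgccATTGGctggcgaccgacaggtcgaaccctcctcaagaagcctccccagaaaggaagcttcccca
They hold 1, 3 and 2 CCAAT boxes and no TTTGAA. Of 17 cholesterol genes with a promoter in the table, 16 (94.1%) hold CCAAT and 1 (5.88%) TTTGAA. Both lists thus hold the CCAAT box in most windows, and only the mitosis list holds TTTGAA in most of them, among these 2 lists.

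**Figure D4:**
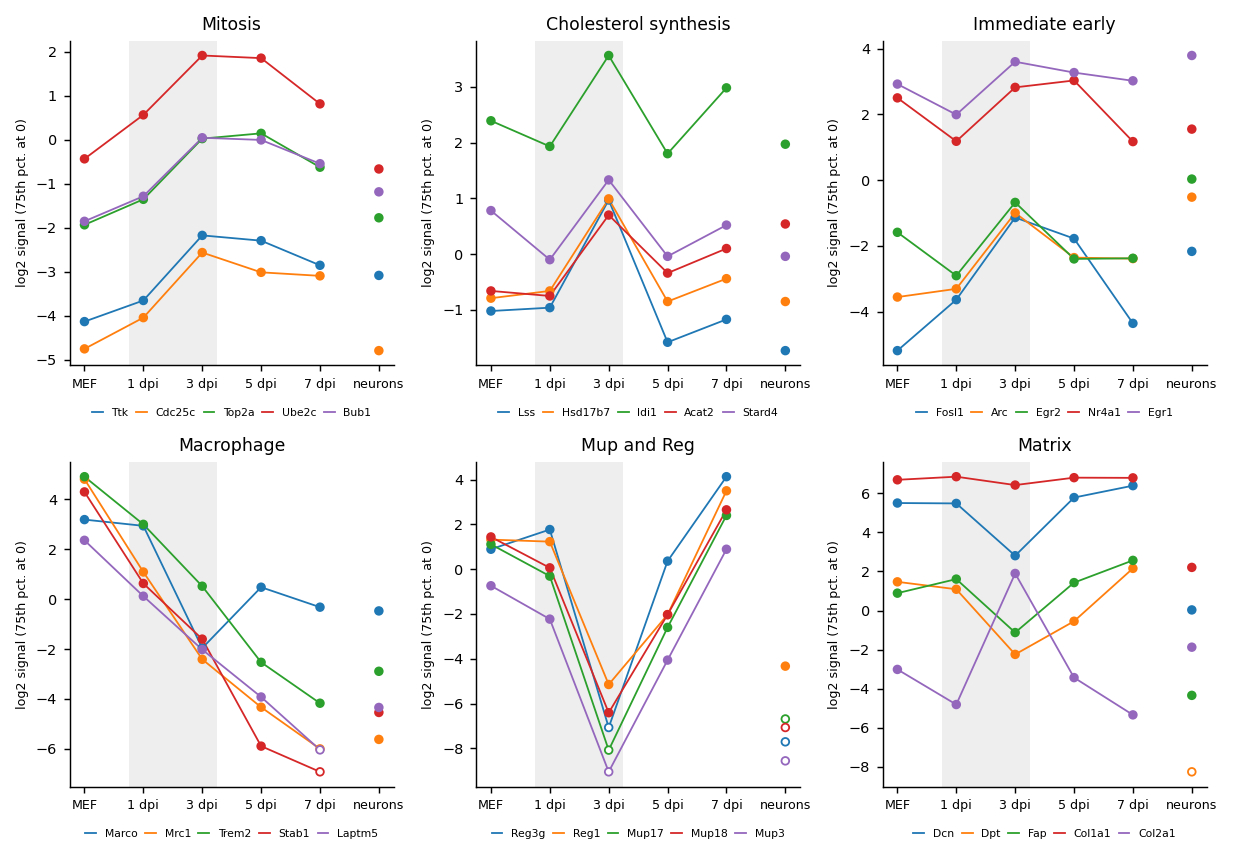
Log2 signal with the 75th percentile of each array at 0 (vertical axis) of 5 genes in each of 6 groups on the 6 arrays in time order with neurons last (horizontal axis), 1 array each; open circles are not well above background, and grey marks 1 and 3 dpi. Mup and Reg genes and the matrix genes Dcn, Dpt and Fap have their lowest fibroblast value at 3 dpi, cholesterol genes and Col2a1 their highest, and Mrc1, Trem2, Stab1 and Laptm5 are lower on each later fibroblast array.

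Many immediate early genes were higher at 3 dpi. Of 24 kept, 11 (45.8%) were at least 2-fold higher, against 7.52% of all genes, and 0 were lower. The median was 0.98. Fosl1, a subunit of the AP-1 transcription factor, lay at -1.14 at 3 dpi and at -3.64 at 1 dpi, 5.66-fold higher. Arc, a gene switched on by activity in neurons and by serum in other cells, lay at -1.0 at 3 dpi and at -3.31 at 1 dpi, and the zinc finger factor Egr2 at -0.68 and -2.91 in the same order. The nuclear receptor Nr4a1 was 3.12-fold higher and Egr1 3.06-fold. The list median was 0.96 in MEF and 0.34 at 1 dpi, with 1.07 at 3 dpi, 0.89 at 5 dpi and 0.30 for the array labelled 7 dpi, so that 1 dpi lay below MEF of the same scan, and 3 dpi near it. Of the 21 genes that respond to cyclic AMP, which forskolin raises, 4 were higher and 2 lower with a median of 0.22. The secretory granule protein Vgf (6.23-fold), the neuropeptide Cck (4.46-fold), the growth factor Areg (4.34-fold) and Nr4a1 were higher, though Areg was at 0.95 on the log2 scale with normexp. Dio2, the deiodinase, was 2.52-fold lower, and the other lower gene, named after its values were seen, was the kinase gene Sik1 at 2.13-fold.

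Inflammatory mediators differed in both directions. Of 28 kept, 9 (32.1%) passed 2-fold upwards and 5 (17.9%) downwards, against 7.52% and 4.94% of all genes. The median was 0.36 and went to -0.09 among brighter genes. Ptgs2, the inducible prostaglandin synthase, lay at 1.19 at 3 dpi and at -3.37 at 1 dpi, 23.6-fold higher, with a spot that the scanner software marked as an outlier. Il1rl1, the receptor for interleukin 33, lay at 2.04 at 3 dpi and at -0.86 at 1 dpi, 7.48-fold higher. Il33, its ligand, lay at -1.98 at 3 dpi and at 2.03 at 1 dpi, a log2 difference of -4.0, and was between 0.76 and 3.07 in MEF, at 5 dpi and for the array labelled 7 dpi. The acute phase protein Saa3 lay at -1.18 at 3 dpi and at 2.46 at 1 dpi, 12.4-fold lower, and at 4.58 at 5 dpi. Receptor and ligand thus lay on opposite sides on these arrays. Areg, a ligand of the epidermal growth factor receptor, was higher as given above.

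Chemokines split by gene. Of 23 kept, 8 (34.8%) were higher and 6 (26.1%) lower, against 7.52% and 4.94% of all genes. Cxcl9, a chemokine induced by interferon gamma, lay at -1.13 at 3 dpi and at -5.40 at 1 dpi, 19.4-fold higher, and between -6.36 and -4.49 on every other array. Ccl5 was 5.64-fold and Cxcl1, an attractant of neutrophils, 5.11-fold higher. Ccl6 lay at -1.44 at 3 dpi and at 3.24 at 1 dpi, 25.5-fold lower, and Pf4 was 8.57-fold lower, and in mice both are made in quantity by macrophages and other blood cells. Cxcr6, a chemokine receptor of T cells, lay at -2.15 at 3 dpi and at -5.75 at 1 dpi, 12.2-fold higher. Of 29 interferon-stimulated genes 2 (6.9%) were higher, near the share of all genes, and 0 lower, with a median of 0.17. Of these Oas1g was 3.00-fold and the regulator Irf7 2.32-fold higher. In MHC and antigen presentation genes 2 of 22 were higher and 1 lower, with a median of 0.10, and the lower gene was the lysosomal protease Ctss (3.21-fold).

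Macrophage genes were lower at 3 dpi. Of 25 kept, 16 were at least 2-fold lower and 0 higher, with a median of -1.29, against 4.94% of all genes lower. Marco, a scavenger receptor, lay at -1.96 at 3 dpi and at 2.94 at 1 dpi, 29.7-fold lower. Mrc1, the mannose receptor, lay at -2.41 at 3 dpi and at 1.09 at 1 dpi, and the lipid receptor Trem2 at 0.52 and 3.00 in that order. The receptor Stab1 was 4.71-fold and the lysosomal protein Laptm5 4.39-fold lower. Csf1r, the receptor that macrophages need to live, lay at 1.69 at 3 dpi and at 2.26 at 1 dpi, 1.48-fold lower, and the pan-leukocyte phosphatase Ptprc was 1.80-fold lower. The members differed unequally, and 3 of them, named after their values were seen, were above 0: F13a1 (1.06-fold), the integrin Itgam (1.41-fold) and the chemokine receptor Cx3cr1 (1.78-fold).

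Along the series the macrophage list median was 3.34 in MEF and 0.91 at 1 dpi. It was -0.47 at 3 dpi and -3.54 at 5 dpi, then -3.91 for the array labelled 7 dpi, and -2.56 in neurons. All 4 arrays of the second scan lay below both of the first for 21 of the 25 members, against 9.19% of all genes. The median also differed within each scan, by more between 1 dpi and MEF, and between 5 and 3 dpi, than between 3 and 1 dpi. Wfdc17 (15.9-fold lower at 3 dpi), Cd200r1 (9.78-fold), a receptor of myeloid cells, and Nxpe5 (9.18-fold) also had every array of the second scan below the first. They, Galnt6 and Pira2 were named for the width of that gap. Galnt6 and Pira2 were 7.57-fold and 6.97-fold lower by their brighter probe, and their other probes gave -0.33 and -1.21 on the log2 scale.

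The genes furthest lower at 3 dpi belonged to the major urinary proteins, small lipid carriers made by liver and glands that bind pheromones, and to the Reg family, secreted lectin-like proteins of pancreas and gut. Reg3g was not well above background at 3 dpi, at -7.07, and lay at 1.77 at 1 dpi, at least 393-fold lower. Mup17 was likewise at background at 3 dpi, at -8.08, and lay at -0.31 at 1 dpi, at least 92.6-fold lower. Mup18 lay at -6.41 at 3 dpi and at 0.06 at 1 dpi, 88.6-fold lower, and Reg1 at -5.15 and 1.23 in the same order, 83.0-fold lower. Of 10 Mup genes kept, 9 were at least 2-fold lower, with a median of -2.46, and of 5 Reg genes 4 were, with a median of -3.30. The Mup genes are near-identical in sequence, so that their probes may share targets and their count is uncertain. Whether Reg probes share targets was not tested.

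Among the MEF and Tet3 arrays these genes were lowest at 3 dpi. Reg3g was at 0.89 in MEF, 0.36 at 5 dpi and 4.13 for the array labelled 7 dpi, and Mup17 at 1.11, -2.60 and 2.40 on the same arrays; both were below background in neurons. The Mup list median was -0.37 in MEF and -1.93 at 1 dpi, with -5.54 at 3 dpi, -2.84 at 5 dpi and 1.31 for the array labelled 7 dpi, and none of its members separated by scan. Reg3d and Mup21, which was named after its values were seen, were the members not lower, both at 1.09-fold, although Reg3d was at -0.04 with normexp and -0.12 with quantile normalization. Of 5 hepatocyte markers, Apoa1 and Ttr were not above background at 3 or 1 dpi. The other 3, Alb, Afp and Serpina1a, were well above it on both arrays, and summed to 0.201 at 3 dpi and 0.268 at 1 dpi. In the wider list of liver genes 1 of 14 was higher and 2 lower, with a median of 0.54 that was -1.25 among brighter genes. The lower genes were the iron carrier Trf (7.15-fold lower) and the fetal serum protein Afp (6.81-fold lower). Afp had a spot that the scanner software marked as an outlier. The 5 acinar pancreas markers summed to 0.166 at 3 dpi and 0.136 at 1 dpi, and 1 of 15 genes of that list was higher, the elastase Cela3b (at least 2.82-fold), and 1 lower, the amylase Amy2a5 (2.39-fold).

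Genes of other families were also among the 15 furthest lower. Folh1, a folate hydrolase, was at background at 3 dpi, at -7.10, and lay at -1.08 at 1 dpi, at least 54.4-fold lower. The GABA receptor subunit Gabra3 lay at -5.73 at 3 dpi and at -0.99 at 1 dpi, 26.6-fold lower, and between -1.25 and 0.68 on the remaining arrays. Gdf10, a member of the TGF-beta family, lay at -3.78 at 3 dpi and at 0.58 at 1 dpi, 20.5-fold lower, and was between 1.64 and 2.92 in MEF, at 5 dpi and for the array labelled 7 dpi. The lens gene Cryba2 was at least 6.6-fold lower, and was not well above background in MEF either. Adamts15, a matrix protease (at -3.33 at 3 dpi and 1.31 at 1 dpi), the complement factor Cfi (25.4-fold), Egfl6, a secreted matrix protein (19.9-fold), the carboxypeptidase Cpz (18.7-fold) and Slc13a3, a dicarboxylate transporter (18.6-fold), were further members, beside Mup3, Marco and Ccl6. Slc13a3 was lower still at 5 dpi, at -2.15. Cryba2 was outside these 15.

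**Figure D5:**
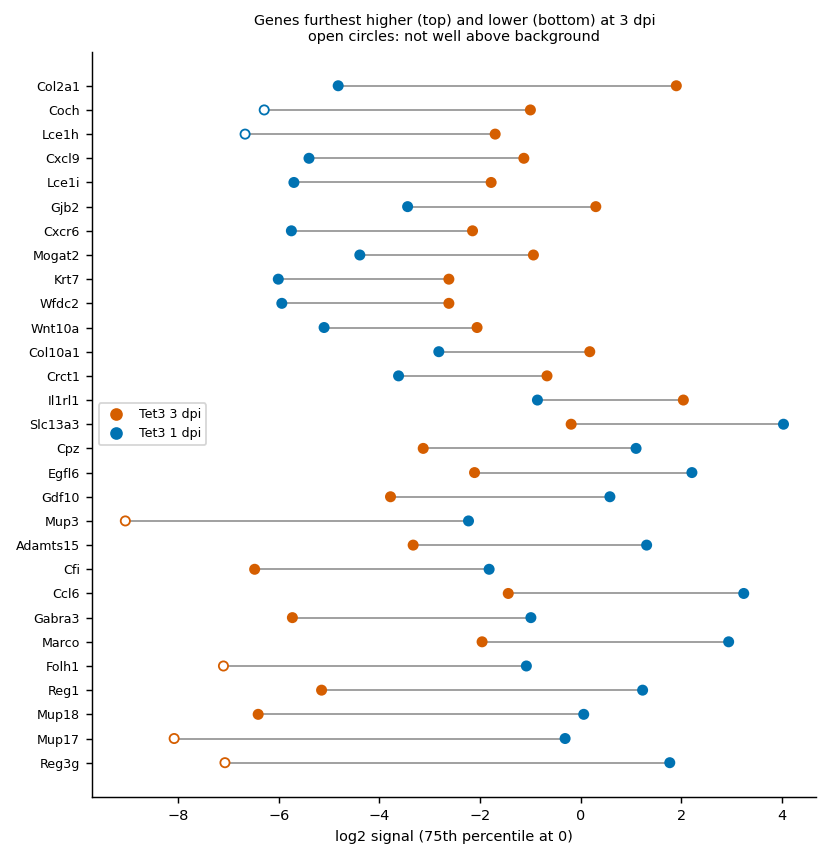
Log2 signal with the 75th percentile of each array at 0 (horizontal axis) at 3 dpi (orange) and 1 dpi (blue), 1 array each, of genes described here from the furthest higher and the furthest lower at 3 dpi (rows); open circles are not well above background and give a bound. Col2a1 stands alone at the top, 105-fold higher, and Reg3g is furthest lower, at least 393-fold.

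Fibroblast and extracellular matrix genes were lower in part. Of 30 kept, 8 (26.7%) were at least 2-fold lower and 1 (3.33%) higher, against 4.94% and 7.52% of all genes. The median was -0.46. Dpt, the matrix protein dermatopontin, lay at -2.25 at 3 dpi and at 1.09 at 1 dpi, 10.2-fold lower. The proteoglycan Dcn lay at 2.81 at 3 dpi and at 5.49 at 1 dpi, 6.45-fold lower, and Fap, the fibroblast activation protease, at -1.13 and 1.61 in the same order, 6.67-fold lower. Mfap4, a microfibril protein, was 5.08-fold lower. The main collagen chains moved little: Col1a1 lay at 6.43 at 3 dpi and at 6.86 at 1 dpi, 1.35-fold lower, Col1a2 was 1.48-fold and fibronectin Fn1 1.16-fold lower, and Vim stood at 0.961-fold, and after quantile normalization Fn1 and Vim were slightly higher (log2 0.07 and 0.24). S100a4, a calcium-binding protein often used as a fibroblast marker, lay at 4.96 at 3 dpi and at 2.59 at 1 dpi, 5.18-fold higher. The collagen I chains thus stayed within 2-fold while a proteoglycan and accessory proteins of the matrix were lower.

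Imprinted growth regulators had a median of -0.36. Of 22, 1 (4.55%) was higher and 4 (18.2%) were lower, against 7.52% and 4.94% of all genes. Beside Cdkn1c and Dcn these were Dlk1, a membrane-bound Notch-like factor, at 3.65 at 3 dpi and 5.67 at 1 dpi, 4.04-fold lower, and the zinc finger gene Plagl1, 2.75-fold lower by its brightest probe, though another of its 4 probes gave 0.00. Of 30 Wnt pathway genes 3 were higher and 5 lower, with a median of -0.41. The secreted antagonists Sfrp1 and Sfrp4 were 4.77-fold and 3.49-fold lower, Nkd1, a feedback inhibitor, 2.82-fold lower, and the ligand Wnt10a lay at -2.06 at 3 dpi and at -5.10 at 1 dpi, 8.18-fold higher. Of 29 TGF-beta and BMP genes 6 (20.7%) were higher and 4 (13.8%) lower. The BMP antagonist Grem1 was 3.95-fold higher, beside Gdf10 (lower, above) and Id4, a target of BMP, at 2.88-fold lower. Fst, an antagonist of activin, was 2.59-fold higher and Chrdl1, another BMP antagonist, 2.75-fold lower, so antagonists lay on both sides.

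Proteases and their inhibitors also split, with 4 of 28 higher and 7 lower. The macrophage elastase Mmp12 lay at -3.52 at 3 dpi and at -0.23 at 1 dpi, 9.82-fold lower, and Adamts2, which trims procollagen, was 3.64-fold lower by its brighter probe, the other giving -0.22. Timp1, an inhibitor of matrix metalloproteinases, was 2.76-fold higher. The YAP/TAZ target list had 5 of 22 members higher and 1 lower, with a median of 0.48. Dock5 (2.78-fold), the transcription factor Foxf2 (2.65-fold) and the muscle ankyrin protein Ankrd1 (2.49-fold) were higher and Igfbp3, a carrier of insulin-like growth factors, 7.81-fold lower. Among smooth muscle genes 4 of 20 were higher and 0 lower, with a median of 0.63. Mustn1, at least 4.69-fold, led them. The calponin Cnn1 was 2.32-fold higher and the smooth muscle actin Acta2 stayed at 0.977-fold (log2 0.27 after quantile normalization). Acta2 had a spot that the scanner software marked as an outlier. With normexp Mustn1 fell short of 2-fold, at 0.83.

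Col2a1, the fibrillar collagen of cartilage, had the largest difference upwards. It lay at 1.90 at 3 dpi and at -4.82 at 1 dpi, 105-fold higher (log2 difference 6.72 ± 0.25, array error), and between -5.35 and -1.88 on the other 4 arrays. Col10a1, the collagen of hypertrophic cartilage, lay at 0.18 at 3 dpi and at -2.82 at 1 dpi, 7.99-fold higher. The cartilage list as a whole had 3 of 18 members higher and 1 lower, with a median of 0.51 that was 0.11 among brighter genes. Acan, the main cartilage proteoglycan, was 2.70-fold higher and the link protein Hapln1 at least 2.47-fold, while the matrilin Matn4 was 3.52-fold lower. Col2a1 was thus far outside the range of its own list. Bone genes gave 3 of 15 higher, led by the osteoclast cytokine Tnfsf11 (4.14-fold) and the homeobox gene Dlx5 (3.44-fold), and 1 lower, the phosphatase Alpl (3.47-fold). Of 30 mesenchymal transcription factors 7 were higher and 0 lower, with a median of 0.39, among them Tcf21, at least 5.05-fold, and the forkhead genes Foxd1 (2.94-fold) and Foxc2 (2.86-fold).

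Several epithelial and skin genes stood among the furthest higher. Krt7, a keratin of simple epithelia, lay at -2.62 at 3 dpi and at -6.01 at 1 dpi, 10.4-fold higher. The gap junction protein Gjb2 lay at 0.30 at 3 dpi and at -3.44 at 1 dpi, 13.4-fold higher. Lce1h, a cornified envelope protein of keratinocytes, was at least 21.8-fold higher and its relative Lce1i 15.1-fold, and Crct1 from the same gene cluster 7.70-fold. The late cornified envelope genes resemble each other closely, so that their probes may not be independent. Of 24 epithelial and keratinocyte genes kept, 5 (20.8%) passed 2-fold upwards and 0 downwards, against 7.52% and 4.94% of all genes. The median was 0.69, and 0.34 among brighter genes. The epithelial markers Epcam and Cdh1 were not above background on either array, and the 4 of 6 markers that were summed to 0.808 at 3 dpi and 0.436 at 1 dpi. Coch, an extracellular protein of the inner ear, lay at -1.0 at 3 dpi and was not well above background at 1 dpi, at -6.29, at least 35.5-fold higher. Mogat2, an acyltransferase of fat absorption, was 10.9-fold higher, and Wfdc2, a secreted protease inhibitor, 9.96-fold, with its other probe at 1.69 on the log2 scale.

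Neuronal genes were higher in part. Of 28 pan-neuronal genes kept, 7 passed 2-fold upwards and 2 downwards, with a median of 0.33, where 7.52% of all genes were higher. Vgf, named above, lay at -1.34 at 3 dpi and at -3.98 at 1 dpi. Stmn2, a microtubule regulator of growing axons, lay at -1.78 at 3 dpi and at -3.88 at 1 dpi, 4.32-fold higher, and the ubiquitin hydrolase Uchl1 at -0.72 and -2.76 in that order, 4.11-fold higher. Tubb3, the neuronal beta tubulin, lay at 0.81 at 3 dpi and at -0.50 at 1 dpi, 2.49-fold higher. Map2, the dendritic microtubule protein, was 1.63-fold higher and Dcx, a marker of young neurons, 1.5-fold lower. The granin Scg2 lay at -5.14 at 3 dpi and at -1.93 at 1 dpi, 9.20-fold lower, so that the granule proteins Vgf and Scg2 lay on opposite sides. Of the 28 genes, 15 had all 4 arrays of the second scan above both of the first, against 24.5% of all genes. Vgf, Stmn2, Uchl1 and Tubb3 were among them.

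The proneural and neuronal transcription factors gave 3 of 23 higher and 0 lower, with a median of 0.31 that was -0.17 among brighter genes. Neurog2, a proneural factor, lay at -3.73 at 3 dpi and at -4.93 at 1 dpi, 2.29-fold higher, but at 0.53 on the log2 scale with normexp and 0.81 with quantile normalization. Pou3f2 was at least 3.07-fold higher by its brightest probe, but another probe gave -1.01. For 14 of the 23 genes, among them Neurog2, all 4 arrays of the second scan lay above both of the first. This held for 24.5% of all genes. In synaptic vesicle genes 4 of 28 were higher and 0 lower, with a median of 0.07 that was -0.17 among brighter genes, led by the glutamate transporter Slc17a6 (2.99-fold, but a log2 difference of 0.68 with normexp). The secretory protein Rph3a, which lies outside that list, was 5.12-fold higher, with all 4 arrays of the second scan above both of the first. Of 31 axon guidance genes 1 (3.23%) was higher and 5 (16.1%) lower, with a median of -0.31. Robo2, a receptor for Slit repellents, lay at -1.71 at 3 dpi and at 0.24 at 1 dpi, 3.86-fold lower, and the semaphorins Sema5a (3.85-fold), Sema3c (3.47-fold), Sema4d (3.36-fold) and Sema3d (3.31-fold) were lower as well. Secreted and membrane semaphorins made up 4 of these 5. Neural progenitor genes (1 of 18 higher), voltage-gated channels (3 of 24 higher, 4 lower) and astrocyte genes (2 of 14 higher) had medians of 0.30, 0.18 and 0.41, and the channel median was -0.55 among brighter genes.

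Housekeeping groups stayed within 2-fold. Of 30 cytosolic ribosomal protein genes and of 30 oxidative phosphorylation genes, 0 passed 2-fold in either direction, with medians of -0.16 and -0.07. Glycolysis genes had 4 of 22 (18.2%) higher, against 7.52% of all genes, and 0 lower. Their median was 0.44, and the lactate exporter Slc16a3 (2.53-fold) led them. Hypoxia response genes had 2 of 21 (9.52%) higher, led by the prolyl hydroxylase Egln3 (3.13-fold), with a median of 0.53 that was 0.02 among brighter genes. Stress lists are set against 12.5% of all genes past 2-fold in either direction. The unfolded protein and amino acid list had 3 of 28 higher, led by the glutathione-degrading enzyme Chac1 (2.68-fold), heat shock genes 1 of 14, and Nrf2 targets 3 of 21 higher and 1 lower, Txnip (2.75-fold lower). Posterior Hox genes had 4 of 21 higher and 1 lower, with a median of 0.05, and skeletal muscle genes 4 of 29 higher with a median of 0.05 that was -0.31 among brighter genes, led by Pax7 (5.01-fold), a factor of muscle stem cells. For Pax7 all 4 arrays of the second scan lay above both of the first.

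Some genes were well above background on the 3 dpi array alone. F2rl1, Olfr722, Klrb1b and Slfn1 were named for lying furthest above both 1 and 5 dpi. They passed the filter through the 3 dpi array only, so their low values at 1 and 5 dpi follow in part from that choice. F2rl1, a protease-activated receptor, lay at -3.66 at 3 dpi and at -8.33 at 1 dpi, at least 5.63-fold higher, and was not well above background on any other array. The same held for Olfr722, Klrb1b and Slfn1, which lay between -4.65 and -4.61 at 3 dpi and between -8.41 and -8.28 at 1 dpi; with normexp their bounds were below 2-fold, from 0.33 to 0.59 on the log2 scale. Emcn, an endothelial surface mucin, was 7.08-fold higher, while 1 of 16 endothelial genes was higher in all and the median of that list was 0.45. The endothelial clotting factor Vwf was 2.82-fold lower. Lists of other cell types follow, for which 12.5% of all genes past 2-fold is the comparison. Mast, T and B cell genes had 2 of 14 higher and 1 lower, the protease Gzmb (2.93-fold lower), with a median of 0.37. Erythroid genes had 2 of 12 higher and 1 lower, with a median of 0.41, the embryonic globin Hbb-y being 2.49-fold higher. Motile cilia genes had 1 of 15 higher, Hydin (3.45-fold), with a median of 0.55. Oligodendrocyte, Schwann and melanocyte genes had 4 of 21 higher and 5 lower, with a median of -0.20 that was 0.03 with no filter. Olig1 was at least 5.57-fold lower, and the proteoglycan Cspg4 lay at 2.03 at 3 dpi and at 0.03 at 1 dpi, 4.00-fold higher.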

How the data were processed

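All 6 arrays were read, 1 for each group, so that samples were grouped by their labels and no replicate, test or interval between groups was possible; the array error covers the array only. The deposited table held log2 values, which the authors shifted to put the 75th percentile at 0 on every array. In the table this percentile lay between -0.0004 and 0 on each array. The table also correlated with the scanner signals (r = 0.99999), a value that a constant shift does not change. The deposited scanner files held signal intensity, background and flags from Agilent's scanner software. The submitters' processing notes name Feature Extraction, version 11.0.1.1. No spot was saturated. The other deposited columns, of flags, were 0 or 1 per spot. The array's header build differs from RefSeq's GRCm38.p6, so RefSeq gave symbols (27234 of 39429 probes) and promoters only.

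The difference was 3 dpi minus 1 dpi. Each gene was represented by the probe with the highest mean over the 6 arrays. A value measured on 1 array only was set against the lowest signal well above background on the other array, or the probe's own signal there where higher. Past 2-fold counted as higher or lower. Alternatives were other scalings, normexp background correction (offset 50, on median signals), quantile normalization, filters and probe rules (Python 3.11.15, R 4.3.3, limma 3.58.1), checked on simulated data.

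The named genes are the 15 furthest in each direction, up to 5 for each of 52 lists, the 8 furthest in each direction from both 1 and 5 dpi, the 8 most separated by scan in each direction, and a set of reference genes. Members and lists were chosen with earlier results of these data known. Near-identical families can share probe sequence. Some genes that this rule names are left out here.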

Additional observations from a re-analysis of the deposited data

Results flagged for a closer look

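A control probe outside the gene comparison carried a difference of at least 2-fold. Of the ERCC control probes, which match no mouse transcript, 6 were well above background at 3 dpi and 2 at 1 dpi. As measured, their differences ran from 0.46 to 1.58 on the log2 scale, with a median of 1.45. Of the 6, 4 were kept through the 3 dpi array alone, and 1 was at least 2-fold higher at 3 dpi by the rule used for genes. This probe, ERCC-00062_278, gave a difference of 1.42 on the log2 scale, at -0.13 at 3 dpi and -1.55 at 1 dpi. On the remaining arrays it lay at -2.02 in MEF, -0.17 at 5 dpi, -1.05 for the array labelled 7 dpi and -0.39 in neurons. The labels do not say whether control RNA was added. Of another set of control probes, E1A, 5 were well above background at 3 dpi and 3 at 1 dpi. By the same rule 0 of these were at least 2-fold higher or lower.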

How the results depend on the processing

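The count of 1367 higher genes was 421 after normexp background correction, 621 after quantile normalization, 2462 with no filter and 212 among brighter genes, and the count of 898 lower genes was 311 among brighter genes. Fewer genes were tested among brighter genes, 8737, and more with no filter, 20659. For the rest the cause was not tested. The median of the major urinary proteins, -2.46, was -2.0 with normexp, -1.25 with both arrays or only members well above background, -1.10 among brighter genes, -2.85 with the mean over probes and -2.95 as a mean over members. The median of the Reg family, -3.30, was -1.94 with normexp, -3.58 with quantile normalization and -4.09 as a mean over members. Over all settings the median ran from 1.06 to 1.15 for mitosis genes, from 1.12 to 1.18 for cholesterol synthesis genes and from -1.44 to -1.22 for macrophage genes. Of the 52 lists, 40 kept the sign of their median in every setting and 12 did not. Besides the turns given with the lists, the median turned for DNA methylation genes (-0.06 as a mean over members), fatty acid genes (-0.07 as a mean over members), p53 targets (-0.05) and Hox genes (-0.01) with median centring, and was 0.0 for genes responding to cyclic AMP with quantile normalization. Signal over background limits the dim genes, whose differences are the least precise. No paired analysis was possible because each group had 1 array, and no array could be left out. Settings that only drop genes leave the values of the rest as they were, and many named genes were chosen for large differences. The count of named genes that passed in every setting was thus partly fixed in advance. Of the 153 genes named by the rule and described here that passed 2-fold, 135 did so in every setting that gave them a value. Those that did not include, under normexp, Oas1g (0.58), Pou3f2 (0.53), Cela3b (0.57), Hapln1 (0.34), Hbb-y (0.60), Amy2a5 (-0.78) and Apobec1 (-0.99), all log2 differences. With the mean over probes Plagl1 was at -0.94 and Mbd1 at -0.97. The signs of Fn1, Vim, Acta2 and Reg3d, all within 2-fold, turned in at least 1 setting.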
